A study of Mus musculus with 12 samples.

Results

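The IL-6 family and STAT3 pathway was followed through 10 genes in cultured mouse adult fibroblasts (MAFs) treated with thymol. The genes were 3 ligands (*Il6*, *Il11*, *Lif*), 3 receptor chains (*Il6ra*, *Il6st*, *Osmr*), the kinase gene *Jak1*, the transcription factor gene *Stat3*, and the response genes *Socs3* and *Cebpd*. They were chosen by name. All 10 were present among the 10697 genes of the expression table. MAFs were grown out of biopsies of wild-type C57BL6/j mice, in medium with serum. Thymol (100 µM), a phenolic monoterpene of thyme and oregano, was given for 24 h with DMSO as its vehicle. The controls were treated with the vehicle only, matched in volume. Each group held 6 libraries numbered 1 to 6. The labels do not say whether these came from separate mice or cultures, so the p-values speak of the spread between libraries. The study describes its mice as male, and their age is not given in the sources used here.

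Cytokines of the IL-6 family share the signal-transducing receptor chain gp130, the product of *Il6st*. Ligand binding brings gp130 chains together and activates Janus kinases, which phosphorylate STAT3. STAT3 then moves to the nucleus and drives genes such as *Socs3*, whose product shuts the receptor down again. In fibroblasts these cytokines are known for their part in inflammation, wound repair and fibrosis.

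RefSeq promoter windows on GRCm38.p6, from 250 bases before to 50 bases after each start site, were found for 9 of the 10 genes, in 10 windows. *Cebpd* had no entry. Each window was searched on both strands for 4 motifs: TTCNNNGAA (STAT), TTGNNCAA (C/EBP), TGANTCA (AP-1) and, for NF-κB, GGG followed by any 2 bases and TTTCC. Of all 32851 windows of this length, 8.30% held the STAT motif, 1.63% the NF-κB motif, 6.40% the C/EBP motif and 7.81% the AP-1 motif. The windows below belong to the 2 ligand genes that fell with thymol, to *Osmr* and *Lif*, which also held an AP-1 match, and to *Socs3*, the only gene with a STAT match. They are written 5′ to 3′ on the gene's strand, and capitals mark the matches.
Il6: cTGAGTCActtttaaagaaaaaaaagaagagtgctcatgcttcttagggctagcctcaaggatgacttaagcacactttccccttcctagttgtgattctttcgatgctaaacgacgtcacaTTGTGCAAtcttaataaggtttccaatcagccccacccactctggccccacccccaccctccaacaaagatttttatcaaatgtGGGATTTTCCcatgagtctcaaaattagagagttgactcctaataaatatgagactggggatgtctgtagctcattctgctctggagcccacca
Il11: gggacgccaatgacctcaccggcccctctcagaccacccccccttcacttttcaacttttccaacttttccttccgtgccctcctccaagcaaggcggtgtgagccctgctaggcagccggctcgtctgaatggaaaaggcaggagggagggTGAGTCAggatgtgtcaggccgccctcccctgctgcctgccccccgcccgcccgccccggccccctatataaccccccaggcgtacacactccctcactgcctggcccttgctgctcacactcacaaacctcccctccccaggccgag
Osmr: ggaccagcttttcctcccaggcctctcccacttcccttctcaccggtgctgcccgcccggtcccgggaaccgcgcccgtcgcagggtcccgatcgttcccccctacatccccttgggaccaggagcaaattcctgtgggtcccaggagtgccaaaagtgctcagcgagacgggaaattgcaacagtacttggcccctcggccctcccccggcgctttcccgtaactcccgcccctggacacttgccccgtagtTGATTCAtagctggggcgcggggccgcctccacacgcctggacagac
Lif: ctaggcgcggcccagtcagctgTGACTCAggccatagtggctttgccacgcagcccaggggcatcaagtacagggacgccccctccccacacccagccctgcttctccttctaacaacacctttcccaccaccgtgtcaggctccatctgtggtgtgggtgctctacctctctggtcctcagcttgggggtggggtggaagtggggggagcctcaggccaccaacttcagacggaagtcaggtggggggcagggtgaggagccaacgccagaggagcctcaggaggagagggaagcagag
Socs3: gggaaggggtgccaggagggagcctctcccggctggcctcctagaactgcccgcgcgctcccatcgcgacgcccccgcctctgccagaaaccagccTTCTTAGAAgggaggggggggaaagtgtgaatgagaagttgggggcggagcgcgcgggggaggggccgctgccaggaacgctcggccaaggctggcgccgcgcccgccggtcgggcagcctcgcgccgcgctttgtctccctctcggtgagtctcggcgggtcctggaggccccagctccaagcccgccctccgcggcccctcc
The *Il6* window (chr5:30012864-30013163, plus strand) held 3 matches that did not overlap. An AP-1 match lay at -249 to -243, a C/EBP match at -128 to -121 and an NF-κB match at -44 to -35, counted from the start site. *Il11* had 2 windows. The one shown (chr7:4778092-4778391, minus strand) held an AP-1 match at -98 to -92, and the other (chr7:4782808-4783107, minus strand) held none of the 4 motifs. *Lif* (chr11:4257318-4257617, plus strand) held an AP-1 match at -228 to -222. In *Osmr* (chr15:6874264-6874563, minus strand) the AP-1 match lay after the start site, at 4 to 10. *Socs3* (chr11:117969317-117969616, minus strand) held a STAT match at -154 to -146. The windows of *Il6ra*, *Il6st*, *Jak1* and *Stat3* held none of these letters. A match describes the sequence only, and no binding was measured.

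QuantSeq, a method that sequences from the 3′ ends of mRNAs, gave the levels. They are log2 CPM as the authors deposited them, that is, reads scaled to a common library total on a log2 scale, with a small prior count added. Whole reads recovered from these values numbered between 5435985 and 9049796 per library. The cultures carried the transcripts of 2 cell types. Of 15 fibroblast markers 13 were in the table, without *Lum* and *Fap*, and of 17 macrophage markers all 17 were, with medians of 8.35 and 8.47 log2 CPM. None of the 6 T cell and 6 mast cell markers looked for was in the table. The summed level of the macrophage markers ranged from 19648 to 21585 CPM with DMSO and from 19637 to 23456 CPM with thymol. *Lyz2* was by far the highest of these markers (13.61 log2 CPM with DMSO, 13.69 with thymol). It weighs most in this sum, which says little about the other macrophage markers. The summed level of the fibroblast markers ranged from 14777 to 15848 CPM with DMSO and from 13965 to 14583 CPM with thymol. These 2 ranges did not overlap. Most of the difference of -887 CPM between the means was that of the collagen gene *Col1a1*, at -689 CPM. *Col1a1* and *Col3a1*, the 2 fibroblast markers called lower in limma, were then left out after their values were seen. The other 11 markers summed to 10532 to 11050 CPM with DMSO and 10509 to 11082 CPM with thymol, and the groups overlapped. Leaving out the called genes favours such an overlap, so it does not show that the share of fibroblasts was unchanged. *Col1a2*, *Vim* and *S100a4* were the highest of the 11 (11.71, 11.38 and 11.34 log2 CPM with DMSO). They weigh most in the sum, which says little about the other fibroblast markers. In such bulk samples fewer cells of a type and less RNA per cell cannot be told apart.

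Thymol was compared with DMSO to ask which genes of the pathway changed. Of the 10 genes, 3 fell and none rose at an adjusted p-value under 0.05 in limma: the cytokine genes *Il6* and *Il11* and the transcription factor gene *Cebpd*. A voom fit on the recovered reads also called 3 lower and 0 higher. Over all genes, 1.57% were called lower, 0.654% higher and 2.22% in either direction. At an unadjusted p-value under 0.05, 6 of the 10 were lower and 0 higher, beside 6.44% of all genes lower and 5.35% higher. For 4 genes, *Stat3* in addition to those 3, every thymol library lay below every DMSO library, which held for 1.16% of all genes. For 0 of the 10 did every thymol library lie above, as it did for 0.524% of all genes. The median log2 fold change of the 10 genes was -0.23, against 0.0026 for all genes. A value below 0 was found for 9 of the 10, beside 49.1% of all genes. The genes were chosen with earlier results in view, so these counts describe them and are not independent evidence.

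**Figure D1:**
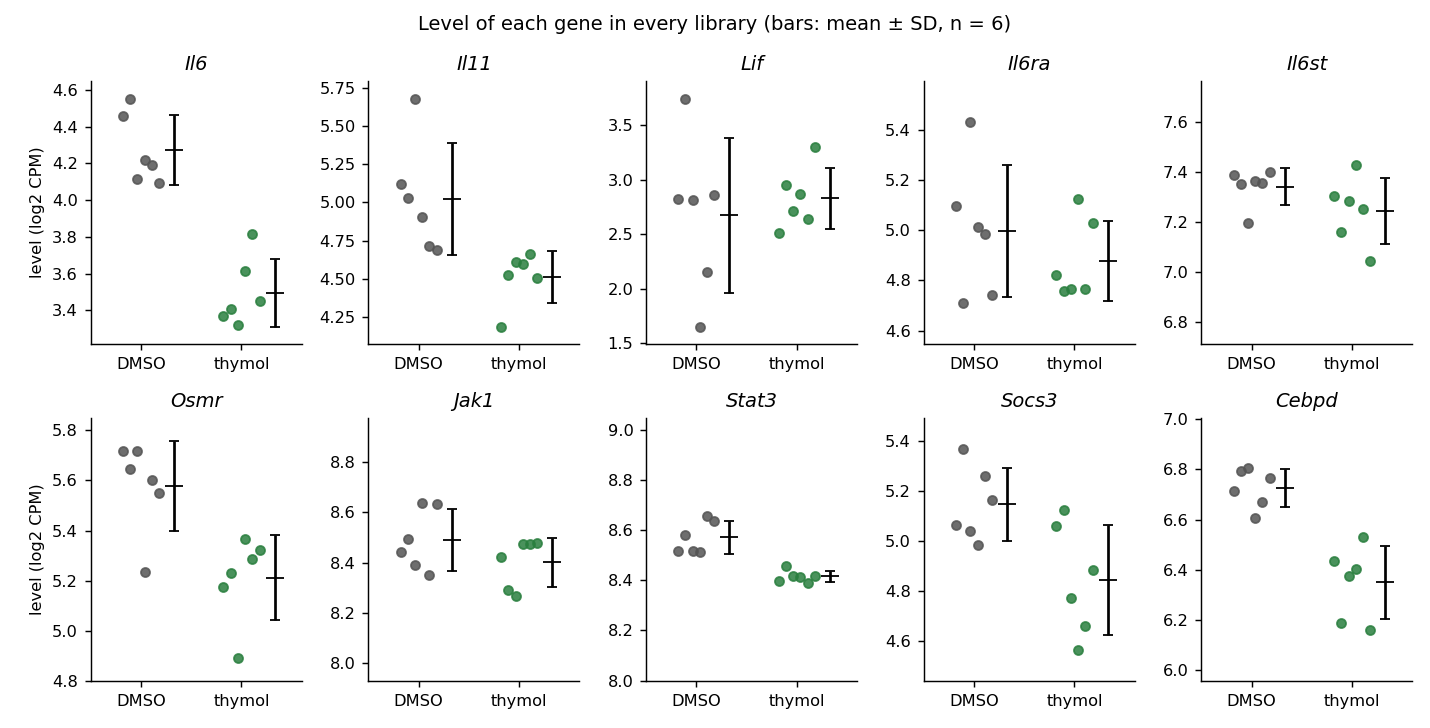
Level of each of the 10 genes in log2 CPM (vertical axis, a separate range for each gene) in the 6 DMSO and 6 thymol libraries, with the mean and SD as a bar beside the points. The thymol points lie below all DMSO points for Il6, Il11, Stat3 and Cebpd and overlap them for the other 6 genes.

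*Il6* encodes the founding cytokine of the family. With DMSO its lowest, median and highest levels were 4.09, 4.20 and 4.55 log2 CPM, and with thymol 3.32, 3.43 and 3.81. The groups did not overlap, and the gap between them was 0.28. Group means were 4.27 ± 0.19 log2 CPM for DMSO and 3.50 ± 0.19 for thymol (SD, 6 libraries each), which gave a difference of -0.77 ± 0.17 on the log2 scale (SE, adjusted p = 0.0033 in limma). On the linear scale with the prior count removed, this was 19.2 ± 2.64 CPM for DMSO against 11.1 ± 1.53 CPM for thymol (SD), or 42.2% lower. It rested on 112 to 163 reads per DMSO library and 58 to 125 per thymol library. The spread within the DMSO group (SD 0.19) was larger than the counting error alone (0.12 on the log2 scale). With thymol the spread (SD 0.19) was close to the counting error alone (0.17). With 10 CPM added before the logarithm, the log2 fold change was -0.47. *Il6* (chromosome 5, 30013114 to 30019981, plus strand, GENCODE vM21) overlapped no other annotated gene.

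*Il11* encodes interleukin-11, a gp130 cytokine made by stromal cells and known for its role in fibrosis. Its lowest, median and highest levels were 4.69, 4.97 and 5.68 log2 CPM with DMSO and 4.19, 4.56 and 4.66 with thymol. All thymol libraries were below all DMSO libraries, but by a gap of 0.024 only. Group means were 5.02 ± 0.36 log2 CPM for DMSO and 4.51 ± 0.17 for thymol (SD, 6 libraries each), and they differed by -0.51 ± 0.14 on the log2 scale (SE, adjusted p = 0.034 in limma). In CPM this was 31.6% lower. DMSO replicate 3 was the highest library (409 reads) and thymol replicate 1 the lowest (116 reads). The call depended on single libraries. The adjusted p-value in limma was 0.080, 0.062 and 0.19 without DMSO replicates 1, 2 and 3, and 0.085, 0.060, 0.053 and 0.067 without thymol replicates 1, 2, 3 and 6. Without DMSO replicate 3 the log2 fold change was -0.38. *Il11* lies on chromosome 7, 4772373 to 4782859, minus strand.

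*Lif* encodes leukemia inhibitory factor, which keeps mouse embryonic stem cells undifferentiated. Its lowest, median and highest levels were 1.65, 2.82 and 3.74 log2 CPM with DMSO and 2.51, 2.79 and 3.30 with thymol. The DMSO libraries spanned the whole thymol range. Thymol and DMSO differed by 0.16 on the log2 scale, with a 95% interval from -0.39 to 0.70 and an adjusted p-value of 0.91 in limma. *Lif* rested on 19 to 91 reads per DMSO library and 35 to 54 per thymol library, and the direction of its difference turned without DMSO replicate 4 (-0.048). The spread between DMSO libraries (SD 0.71) exceeded the counting error alone (0.21 on the log2 scale), and the difference lay within it.

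Of the 3 receptor chains, 0 were called in limma or voom, beside 2.22% of all genes in limma. At an unadjusted p-value under 0.05, 1 was lower (*Osmr*) and 0 were higher, beside 6.44% and 5.35% of all genes. *Il6ra* encodes the IL-6-binding chain, which in the textbook picture is made by leukocytes and hepatocytes more than by fibroblasts. Levels ran from 4.71 to 5.43 log2 CPM with DMSO (median 5.00) and from 4.76 to 5.13 with thymol (median 4.79), and every thymol value lay within the DMSO range. Thymol minus DMSO was -0.12 on the log2 scale, with a 95% interval from -0.37 to 0.13 (limma adjusted p = 0.81).

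*Il6st* encodes gp130 itself. Levels ran from 7.19 to 7.40 log2 CPM with DMSO (median 7.36) and from 7.05 to 7.43 with thymol (median 7.27). The groups overlapped, with 2 thymol libraries below and 1 above all DMSO libraries. Here the log2 fold change was -0.096, with a 95% interval from -0.23 to 0.037 (limma adjusted p = 0.64).

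*Osmr* encodes the chain that pairs with gp130 to bind oncostatin M. Its lowest, median and highest levels were 5.24, 5.62 and 5.72 log2 CPM with DMSO and 4.89, 5.26 and 5.37 with thymol. DMSO replicate 4 was the one DMSO library inside the thymol range, and 3 thymol libraries lay below every DMSO library. The log2 fold change was -0.37 ± 0.11 (SE), with a 95% interval from -0.58 to -0.15, and the adjusted p-value of 0.054 in limma missed the threshold. It passed without DMSO replicate 4 (log2 fold change -0.43, adjusted p = 0.014) and without thymol replicate 4 (-0.40, adjusted p = 0.040). The ligand gene *Osm* was not in the table.

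**Figure D2:**
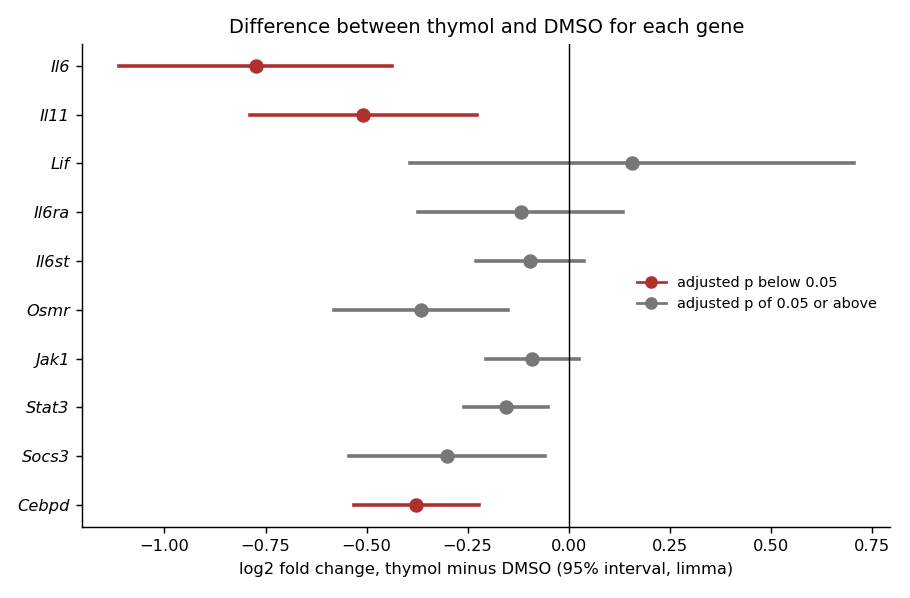
Log2 fold change of each gene, thymol minus DMSO (horizontal axis), with the 95% interval of the limma fit as a line. Red marks an adjusted p-value below 0.05 over all genes, reached by Il6, Il11 and Cebpd, and the grey intervals of Osmr, Stat3 and Socs3 also lie below 0.

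The kinase and the transcription factor downstream of gp130 were well measured. *Jak1* encodes the Janus kinase bound to the receptor chains. Levels ran from 8.35 to 8.64 log2 CPM with DMSO (median 8.47) and from 8.27 to 8.48 with thymol (median 8.45), and the groups overlapped. *Jak1* differed by -0.090 on the log2 scale, with a 95% interval from -0.21 to 0.026 (limma adjusted p = 0.60).

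*Stat3* had its lowest, median and highest levels at 8.51, 8.55 and 8.66 log2 CPM with DMSO and at 8.39, 8.42 and 8.46 with thymol. The groups did not overlap, although the difference was small. The SD was 0.023 for the 6 thymol libraries and 0.065 for the 6 DMSO libraries. The counting error alone was 0.031 with thymol and 0.028 with DMSO on the log2 scale. The spread of the thymol libraries was thus slightly below the counting error alone, and an SD from 6 libraries is itself uncertain. Thymol minus DMSO was -0.16 ± 0.052 (SE) on the log2 scale, with a 95% interval from -0.26 to -0.052. The adjusted p-value in limma was 0.11. An exact two-sided permutation test on this gene alone gave an unadjusted p = 0.0022, the smallest that 6 against 6 libraries allow. That value follows from the lack of overlap and adds nothing to it, and *Il6*, *Il11* and *Cebpd* had the same. *Stat3* (chromosome 11, 100885098 to 100939540, minus strand) overlaps *Stat5a* on the other strand, and the strand setting of the counting is not given in the sources used here. The level of *Stat5a*, 2.42 log2 CPM with DMSO and 2.71 with thymol, differed by 0.28 (limma adjusted p = 0.79).

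*Socs3* encodes the feedback inhibitor that binds gp130 and the Janus kinases, and it is among the genes that STAT3 switches on most directly. Levels ran from 4.99 to 5.37 log2 CPM with DMSO (median 5.11) and from 4.57 to 5.12 with thymol (median 4.83). The groups overlapped, with 4 of 6 thymol libraries below every DMSO library. The log2 fold change was -0.30 ± 0.12 (SE), with a 95% interval from -0.54 to -0.060 (limma adjusted p = 0.25). Taken alone, its unadjusted exact two-sided permutation p-value was 0.022. In no fit with 1 library left out did it pass, and the adjusted p-value ranged from 0.17 to 0.45.

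*Cebpd* encodes C/EBPδ, a transcription factor of the acute phase response that is induced by IL-6 and by other inflammatory signals. Its lowest, median and highest levels were 6.61, 6.74 and 6.80 log2 CPM with DMSO and 6.16, 6.39 and 6.53 with thymol. The groups did not overlap, and the gap was 0.075. The mean of 6.73 ± 0.077 log2 CPM for DMSO and that of 6.35 ± 0.15 for thymol (SD, 6 libraries each) differed by -0.38 ± 0.077 (SE, adjusted p = 0.0015 in limma), or 22.8% in CPM with the prior removed. With 387 to 895 reads per library it rested on more reads than *Il6*, and by p-value it stood at rank 75 of all genes, with *Il6* at 90. *Cebpd* (chromosome 16, 15887286 to 15891031, plus strand) overlaps *Spidr* on the other strand.

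The calls for *Il6* and *Cebpd* held with any 1 library left out, and those for *Il11* did not. For *Il6* the adjusted p-value in these 12 fits ranged from 0.0018 to 0.016 and the log2 fold change from -0.84 to -0.72. For *Cebpd* they ranged from 0.00054 to 0.010 and from -0.41 to -0.34. In a fit whose variances do not follow the mean level, the adjusted p-value in limma was 0.0061 for *Il6*, 0.054 for *Cebpd* and 0.20 for *Il11*. With a library left out, *Il11* passed in 5 of the 12 fits and *Osmr* in 2. *Stat3* and *Socs3* passed in 0 of 12, with *Stat3* between 0.10 and 0.26.

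**Figure D3:**
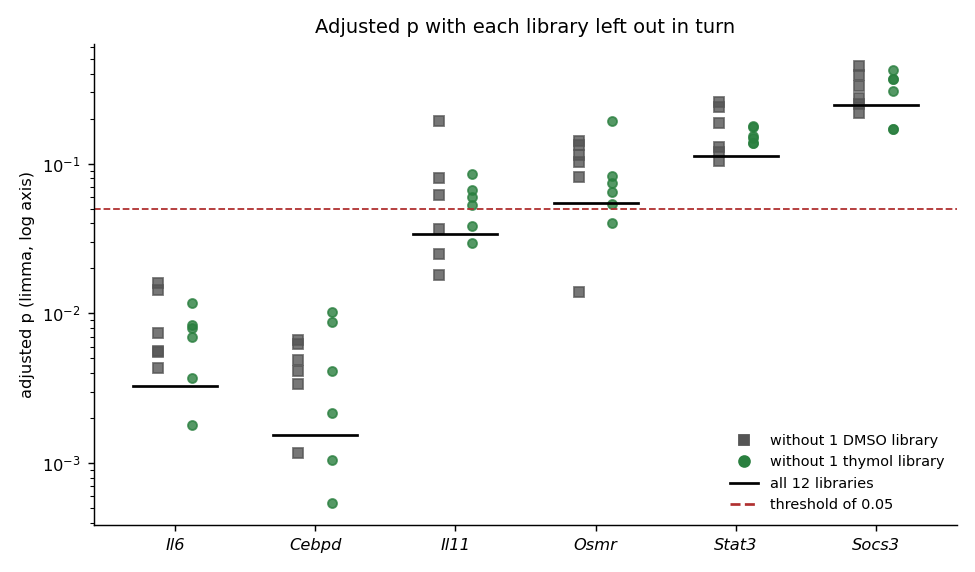
Adjusted p-value in limma (vertical log axis) for 6 genes when 1 DMSO library (squares) or 1 thymol library (circles) is left out, with the value from all 12 libraries as a black line and the threshold as a dashed line. Il6 and Cebpd stay below the threshold in all 12 fits, while the points of Il11 fall on both sides of it.

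Variation within the groups was compared between the 10 genes. After the group mean was taken off each library, the Pearson correlation over the 12 libraries was above 0 for 23 of the 45 gene pairs, with a median of 0.043 and a range from -0.58 (*Il11* and *Stat3*) to 0.63 (*Il6ra* and *Il11*). Between *Il6* and *Cebpd* it was 0.37. Genes measured in the same library share its depth, and the values are a description. Among the 5394 other genes with a mean above 5 log2 CPM, the ones whose deviations were most like those of *Il6* were *Ptma*, *Cdc42se1*, *Tubb3*, *Chst12* and *Rps25*, with correlations of 0.89 to 0.84. For *Cebpd* they were *Nop53*, *Sel1l*, *Gfer*, *Ccnk* and *Cog2*, with correlations of 0.91 to 0.87. Of these 10 most alike genes, *Ptma* was the one that passed between thymol and DMSO in limma, with a log2 fold change of 0.25 (adjusted p = 0.0082).

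The rest of the pathway was described through 76 further genes grouped by role, of which 62 were in the table. Of these, 6 fell (9.68%, beside 1.57% of all genes), 1 rose (beside 0.654% of all genes) and 55 did not pass in limma. Their median log2 fold change was 0.0087. Without DMSO replicates 1, 4 and 6 the number called was 3, 4 and 2, and without thymol replicates 2 and 6 it was 3 and 4. With variances that do not follow the mean level it was 1 (*Fos*).

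Among ligands, 3 were measured besides the 3 genes above. None was called in limma, in voom or at an unadjusted p-value under 0.05 (0 of 3 each). Of all genes, 2.22% were called in limma, and 6.44% were lower and 5.35% higher without adjustment. The smallest p-value of the 3 ligands belonged to *Ebi3*, a subunit of interleukin-27, with a log2 fold change of -0.097 and an interval from -0.43 to 0.24. Not in the table were *Osm*, *Cntf*, *Ctf1* and *Il27*.

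Among receptors and sheddases, *Il11ra1*, which encodes the receptor chain for interleukin-11, rose. Its lowest, median and highest levels were 6.58, 6.74 and 6.93 log2 CPM with DMSO and 6.86, 7.04 and 7.18 with thymol, and 5 of 6 thymol libraries lay above every DMSO library. It differed by 0.29 ± 0.073 on the log2 scale (SE, adjusted p = 0.016 in limma). It thus differed in the opposite direction to its ligand gene *Il11*. The adjusted p-value was 0.064 without DMSO replicate 6 and 0.050 without thymol replicate 2, neither of which passed. *Il11ra1* (chromosome 4, 41699989 to 41769474, plus strand) overlaps several genes in the annotation, among them *Galt* on the same strand. The receptor gene *Lifr* differed by 0.22, and the genes of the sheddases that release soluble IL-6 receptor, *Adam10* and *Adam17*, by 0.046 and 0.029, with adjusted p-values of 0.79, 0.90 and 0.95 in limma.

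Of the 7 other kinase and STAT genes, 0 were called in limma or voom, beside 2.22% of all genes in limma. At an unadjusted p-value under 0.05, 1 was lower and 0 were higher, beside 6.44% and 5.35% of all genes. The lower gene was *Stat2*, a transcription factor of the interferon response, with a log2 fold change of -0.41 (interval -0.72 to -0.10, limma adjusted p = 0.20). *Jak2* differed by 0.13 and *Tyk2* by 0.064, with adjusted p-values of 0.80 and 0.93 in limma.

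Of the 15 inhibitor genes besides *Socs3*, 0 were called in limma or voom, beside 2.22% of all genes in limma. At an unadjusted p-value under 0.05, 0 were lower and 1 was higher, beside 6.44% and 5.35% of all genes. The higher gene was *Ptpn1*, which encodes a tyrosine phosphatase, with a log2 fold change of 0.18 (interval 0.061 to 0.31, limma adjusted p = 0.12). The log2 fold change was above 0 for 12 of the 15, as it was for 50.9% of all genes, and below 0 for *Socs3*. *Socs1*, also a STAT-induced inhibitor, differed by 0.075 at a low level (interval -0.77 to 0.93, limma adjusted p = 0.98). It rested on 5 to 56 reads per DMSO library and 4 to 34 per thymol library. *Socs2* differed by 0.18 (limma adjusted p = 0.74).

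Among 21 measured STAT3-responsive genes besides *Cebpd*, 4 fell and 0 rose in limma, and voom gave 4 and 0, beside 1.57% of all genes called lower and 0.654% higher. At an unadjusted p-value under 0.05, 7 were lower and 1 higher, beside 6.44% and 5.35% of all genes. Those that fell also respond to signals other than STAT3. *Fos*, a subunit of the AP-1 transcription factor, had its lowest, median and highest levels at 4.77, 4.95 and 5.34 log2 CPM with DMSO and at 3.96, 4.23 and 4.64 with thymol, with no overlap. The difference was -0.77 ± 0.14 on the log2 scale (SE, adjusted p = 0.00026 in limma), the smallest p-value of the list, and it passed in all 12 fits with 1 library left out. *Junb*, a partner of *Fos* in AP-1, also had no overlap (7.40 to 7.58 log2 CPM with DMSO and 6.99 to 7.36 with thymol), with a log2 fold change of -0.23 (limma adjusted p = 0.041).

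*Bcl3*, an atypical IκB protein gene, fell by 0.48 on the log2 scale (limma adjusted p = 0.036) and *Hif1a*, the oxygen-sensing transcription factor gene, by 0.26 (limma adjusted p = 0.027). Of the 12 fits with 1 library left out, *Bcl3* passed in 5, *Junb* in 4 and *Hif1a* in 6. The adjusted p-values reached 0.11 for *Bcl3* (without thymol replicate 4), 0.15 for *Junb* (without thymol replicate 1) and 0.13 for *Hif1a* (without thymol replicate 6). Of the 17 genes of this list that were not called, 4 had an unadjusted p-value under 0.05. *Gadd45g*, a growth arrest gene, differed by -0.21 on the log2 scale and *Birc5*, which encodes the mitotic protein survivin, by 0.33, with adjusted p-values of 0.057 and 0.059 in limma. *Il4ra*, the interleukin-4 receptor gene, differed by -0.19 and *Cebpb*, which encodes the C/EBP factor related to C/EBPδ, by -0.22, with adjusted p-values of 0.18 and 0.20 in limma. The remaining 13 had log2 fold changes from -0.40 (*Lbp*) to 0.068 (*Icam1*).

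Of 12 measured genes that act on *Il6* transcription or mRNA decay, 2 fell and 0 rose in limma and in voom, where 1.57% and 0.654% of all genes did so in limma. Without adjustment, 4 were lower and 1 higher at a p-value under 0.05, against 6.44% and 5.35% of all genes. The 4 were *Nfkbia*, *Il1rn*, *Arid5a* and *Tnf* (log2 fold change -0.41, limma adjusted p = 0.26). The 1 higher gene was *Zfp36l1* (log2 fold change 0.18, limma adjusted p = 0.25). *Nfkbia*, which encodes the inhibitor IκBα and is itself switched on by NF-κB, differed by -0.23 ± 0.059 on the log2 scale (SE, adjusted p = 0.018 in limma), with levels of 8.05 to 8.27 log2 CPM with DMSO and 7.83 to 8.13 with thymol. Its adjusted p-value was 0.054 without DMSO replicate 1, 0.059 without thymol replicate 5 and 0.055 without thymol replicate 6. *Il1rn*, the interleukin-1 receptor antagonist gene, differed by -0.70 ± 0.20 on the log2 scale (SE, adjusted p = 0.039 in limma), with levels of 3.82 to 4.76 log2 CPM with DMSO and 2.92 to 4.19 with thymol. It passed in 5 of the 12 fits with 1 library left out, and its adjusted p-value reached 0.15 without thymol replicate 2. With quantile normalization it was 0.052, and the call was lost. The NF-κB subunit genes *Nfkb1* and *Rela* differed by 0.055 and -0.033, with adjusted p-values of 0.93 and 0.94 in limma. *Arid5a*, whose product stabilizes *Il6* mRNA, differed by -0.81 at a low level (limma adjusted p = 0.25), and *Zc3h12a*, whose product degrades it, by -0.075 (limma adjusted p = 0.95).

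**Figure D4:**
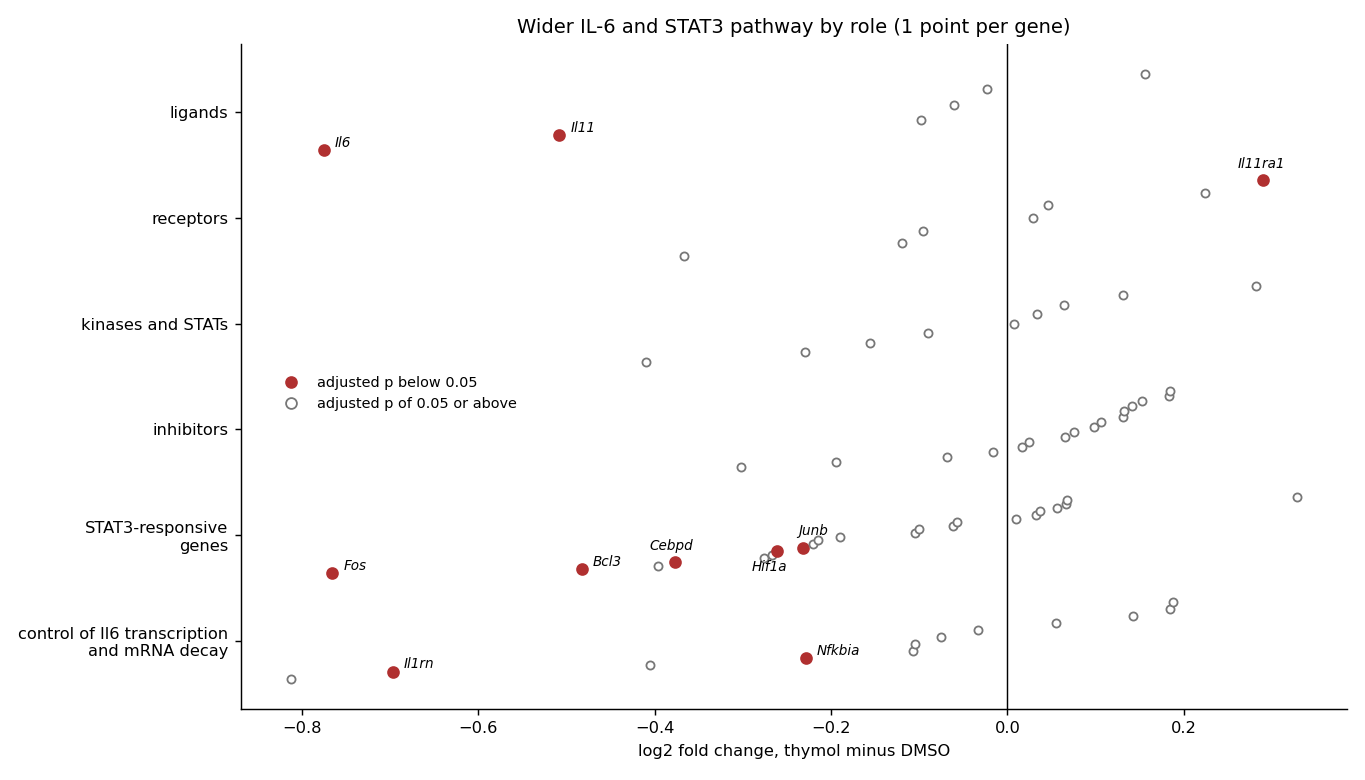
Log2 fold change, thymol minus DMSO (horizontal axis), of each measured gene of the wider pathway and of the 10 genes, in rows by role. Filled and named points passed an adjusted p-value of 0.05 over all genes, and all of them lie to the left of 0 except Il11ra1.

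The cell type markers moved as follows beside these genes. Of the 17 macrophage markers, 2 were called lower (*Itgam*, log2 fold change -0.31, and *Cd14*, -0.78) and 1 higher (*Trem2*, 0.23), and their median log2 fold change was -0.013. Of the 13 fibroblast markers, 2 were called lower (*Col1a1*, -0.28, and *Col3a1*, -0.54), and their median was -0.069. Of 6 markers each, 2 endothelial, 2 skeletal muscle, 1 keratinocyte and 1 adipocyte marker were in the table, and of these 1 was called lower (*Acta1*, -0.45). These counts stand beside 1.57% of all genes called lower and 0.654% called higher in limma. At an unadjusted limma p-value under 0.05, the macrophage markers *Csf1r* (-0.15), *Mrc1* (-0.20) and *Adgre1* (-0.14) were also lower and *Cd68* (0.18) higher. Among the fibroblast markers, *Prrx1* (-0.18), *Thy1* (-0.13) and *Postn* (-0.47) were also lower and *Pdgfra* (0.33) higher. Of all genes, 6.44% were lower and 5.35% higher at that p-value. *Il6ra*, whose product is typical of leukocytes, differed by -0.12 as given above. The part of cell composition in the lower *Il6*, *Il11* and *Cebpd* was not tested.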

How the data were processed

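QuantSeq 3′ libraries of MAFs were compared, 6 with thymol and 6 with DMSO. Per the labels and the study's methods, the authors aligned reads to GRCm38 with STAR 2.5.3, counted them with HTSeq 0.6.1, dropped genes with few reads and nonannotated genes, and applied TMM scaling. The deposited values are log2 CPM with a prior count. Each library's values rose in equal steps from a shared lowest value. Dividing by the step gave whole reads (100% of values under 200 reads within 0.02 of a whole number), and the prior equalled 1.96 reads on average. Read totals speak of counting error only.

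All 10697 genes were fitted with limma 3.58.1 in R 4.3.3 (moderated variances that follow the mean level, 2 groups, no covariate), since the values are log2 and not counts. P-values are two-sided and adjusted by Benjamini-Hochberg over all genes, with a threshold of 0.05. The fit was tested on simulated data. Alternatives were a pseudocount of 10 CPM, a minimum mean of 5 log2 CPM, median centring, quantile normalization, no trend, voom on the recovered reads, a replicate block, odd or even replicate number as a term, each library left out, and an exact permutation test for single genes.

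The 10 genes and all lists were chosen with earlier results of these data known. Named genes are the 10, every called gene of the wider lists and otherwise the smallest p-value of a list, and the 5 genes most like *Il6* and *Cebpd*. Others were named for their role after their values were seen. Some genes of the lists are not reported here.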

Additional observations from a re-analysis of the deposited data

Results flagged for a closer look

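For the 10 genes, the 7 called genes of the wider lists and the read totals, the highest and lowest library of each group were tested against the others by Dixon's ratio of gap to range. The ratio passed its 95% critical value for 6 samples in 5 of 36 groups. Chance gives about 1 group in 20, which is 1.8 here. *Il6st* was 7.19 log2 CPM in DMSO replicate 3, below the other 5 DMSO libraries. *Osmr* was 5.24 log2 CPM in DMSO replicate 4, the library without which it passed the threshold. Thymol replicate 1 was the lowest thymol library for *Il11* (4.19 log2 CPM) and for *Junb* (6.99 log2 CPM). Without it *Il11* had a log2 fold change of -0.44 (limma adjusted p = 0.085) and *Junb* of -0.18 (limma adjusted p = 0.15). Thymol replicate 5 had 9049796 recovered reads, more than any other library.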

How the results depend on the processing

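The variance model moved the counts most. Without the mean-variance trend 57 genes passed in place of 238, 1 of the 10 genes (*Il6*) in place of 3, and 1 of the wider list in place of 7. *Cebpd* then had an adjusted p-value of 0.054 and *Il11* of 0.20. With a library left out, between 172 and 270 genes passed, between 2 and 4 of the 10 genes, and between 2 and 8 of the wider list. *Lif*, between -0.048 and 0.37 in these fits, changed direction in 1. The minimum mean of 5 left *Il6*, *Il11*, *Lif*, *Il6ra* and *Socs3* untested. *Osmr* passed with that minimum (adjusted p = 0.042), with median centring (0.043), with the replicate block (0.048) and with a term for odd replicate numbers (0.048). The replicate numbers gave no clear pairing of the libraries. The correlation of same-numbered libraries was above 0.1 for 2 of 6 pairs (range -0.051 to 0.27), and 1 of 6 DMSO libraries correlated best with its own number. DMSO replicates 1, 3 and 5 correlated best with thymol replicate 1, and DMSO replicates 2, 4 and 6 with thymol replicate 5. With the replicate block 332 genes passed, 4 of the 10 genes and 10 of the wider list. With the term for odd or even replicate number these counts were 277, 4 and 9. Quantile normalization and voom gave 239 and 238 genes.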
